A study of Mus musculus with 25 samples.

Results

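Cerebral cortex RNA was compared between 5 vehicle-treated mice of an amyloid model and 5 vehicle-treated wild type mice, 10 of the 25 libraries of the series used here. The model mice, called model control, carried APPswe and a second transgene, were of strain B6C3, male and 6 months old. The wild type mice were C57BL/6J, male and 6 months old, with no transgene named. Mice of both groups received the vehicle by intraperitoneal injection daily for 3 months. The labels number 5 samples in a group without saying whether each is a single animal. They are called mice here. The p-values measure the spread between samples within groups, estimated over all 25 libraries, treated mice included, except where fewer are named. Strain and transgenes differ together between the groups, so their contributions cannot be told apart. The other 15 libraries, 5 a group, came from transgenic mice of this strain and age that received (-)-vestitol (5 mg/kg), 5 mg/kg of salviolone, or 2.5 mg/kg of each compound. They entered the fit as groups of their own.

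In this model, the amyloid precursor protein with the Swedish mutation is made under the control of the mouse Prnp promoter, which is active in neurons and glia throughout the brain. Cleavage of the precursor by beta- and gamma-secretase releases amyloid beta, which aggregates into plaques in cortex and hippocampus. Microglia gather at plaques and switch on a programme that depends on the receptor TREM2 and its adaptor TYROBP, and astrocytes nearby raise the filament protein GFAP.

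Total counts ran from 64008552 to 93132986 per library, and 16515 genes passed the filter on low counts. A gene counts as called, and as raised or lowered, where the Benjamini-Hochberg adjusted p of edgeR's quasi-likelihood test was below 0.05. Levels are CPM, read counts rescaled to a common library total, given for mice 1 to 5 of a group in order or as mean ± SD (n = 5). In parentheses stand the log2 fold change, model control over wild type, with its standard error, and the adjusted p. Of the genes tested, 1913 or 11.6% were called, 887 raised (5.37%) and 1026 lowered (6.21%), and their median absolute log2 fold change was 0.40. The 5 model control mice all lay above the 5 wild type mice for 402 genes (2.43%) and all below them for 352 genes (2.13%). The number called moved with the libraries included. It was 954 when wild type mouse 4 was left out, 1194 when model control mouse 2 was, and 2928 when wild type mouse 2 was. In a fit of the 10 mice alone it was 349, of which 336 were also called with all 25 mice in the fit.

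The dissection was checked with lists of genes marking tissue that borders the cortex, chosen with earlier results of these data known. Summed levels of 20 genes of the hypothalamus, which lies below the cortex, were 472, 221, 288, 208 and 196 CPM in model control mice 1 to 5, against 575, 218, 834, 835 and 669 CPM in wild type mice 1 to 5. Wild type mouse 2 was thus at the level of the lower model control mice, and model control mouse 1 came closest to the other wild type mice. Of the 20 genes, 7 were lowered and none raised, against 6.21% lowered over all genes. Pomc, among the 7, was at 85.9 CPM in wild type mouse 3 and at 1.46 CPM in the next wild type mouse. Wild type mouse 3 is the library with the pituitary transcripts described below. Pomc lost its call without that mouse or without model control mouse 2, 4 or 5. The median log2 fold change of the 20 was -1.47, against -0.01 over all genes tested. Hap1, which encodes a huntingtin-associated protein abundant in hypothalamic neurons, was at 119, 52.4, 64.0, 50.9 and 45.2 CPM in model control, against 187, 53.8, 234, 253 and 182 CPM in wild type (log2 fold change -1.46 ± 0.30, adjusted p = 0.00385). Magel2, an imprinted gene of the hypothalamus, was at 2.09 ± 1.16 CPM in model control and 9.11 ± 4.32 CPM in wild type (-2.12 ± 0.43, adjusted p = 0.00362). The log2 fold changes of the 20 genes ran from -5.56 to -0.09, and 13 were not called. The peptide genes Avp, Oxt and Agrp were not called in the 10 mice alone (adjusted p = 0.803, 0.517 and 0.777). In bulk RNA, fewer cells of a type and less RNA per cell cannot be told apart. The number of lowered hypothalamus genes was 11 without wild type mouse 2, 4 without model control mouse 2, 4 or 5, and 1 in the 10 mice alone.

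Pituitary hormone genes were almost all in 1 library. Gh, growth hormone, was at 0, 0.0753, 0, 0.411 and 0.770 CPM in model control, against 3.07, 1.41, 5316, 0.877 and 0 CPM in wild type, so that wild type mouse 3 alone was high. Prl, prolactin, was likewise at 0 to 0.103 CPM in model control, against 399.6 CPM in wild type mouse 3 and 0 to 0.353 CPM in the other wild type mice. The 4 pituitary genes called of 6 tested were none without wild type mouse 3, and 1 without any 1 of the model control mice. Choroid plexus genes, from the tissue that makes cerebrospinal fluid, stood out in the model group: their sum was 247, 238, 200, 880 and 509 CPM in model control, against 162, 269, 162, 176 and 170 CPM in wild type. Ttr, the thyroid hormone carrier that choroid plexus secretes, reached 418 and 185 CPM in model control mice 4 and 5 and stayed at 20.1 CPM or below in all other mice of both groups (adjusted p = 0.0611). Enpp2, also abundant in choroid plexus, was the only called gene of its 15 (0.68 ± 0.19, adjusted p = 0.0245) and lost its call without model control mouse 4 or 5, or wild type mouse 1, 3, 4 or 5, while 2 of its list were raised without model control mouse 1. Red blood cell genes summed to 213 CPM in model control mouse 4, against 68.2 to 98.4 CPM in the other 9 mice. None of 14 striatum genes was called, though 1 was raised without wild type mouse 2. Of 15 hippocampus genes, 7 were lowered and 1 raised. Lowered genes numbered 1 of 12 for the thalamus, 3 of 13 for the ependyma and 3 of 15 for the meninges, with none raised, against 6.21% lowered over all genes. The hippocampus genes included Wfs1, which encodes wolframin and marks the CA1 field (-0.89 ± 0.19, adjusted p = 0.00453, with 0.0901 in the 10 mice alone and 0.249 with the hypothalamus score described below as covariate). No hippocampus or meninges gene was called in either of those fits. The number lowered there was 1 without wild type mouse 4 and 3 without model control mouse 4 or 5, and the raised gene lost its call without model control mouse 1, 4 or 5 or wild type mouse 3, 4 or 5. Of the meninges genes, 1 was lowered when model control mouse 2 or 3, or wild type mouse 3 or 4, was left out, and 5 when wild type mouse 2 was. The lowered thalamus gene was Calb2, the calcium-binding protein calretinin, and of the 10 mice it kept its call only without model control mouse 1 or wild type mouse 2.

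**Figure D1:**
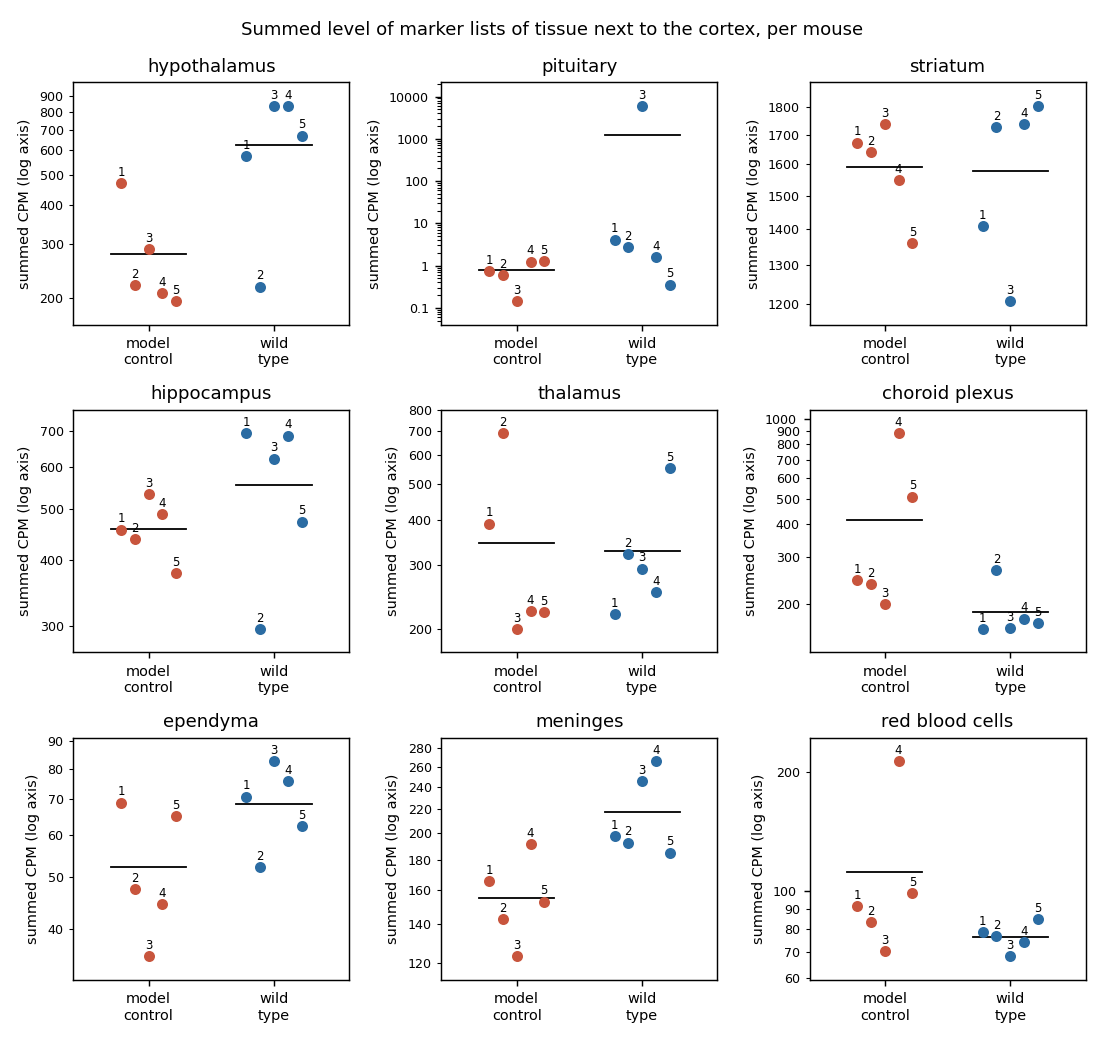
Summed CPM (log axis) of 9 lists of genes marking tissue next to the cortex, by mouse, with model control left of wild type, each point 1 mouse with its number and the line the group mean. Hypothalamus genes were low in wild type mouse 2 (218 CPM) as in most model control mice, pituitary genes were high in wild type mouse 3 (6050 CPM), and choroid plexus genes were high in model control mice 4 and 5 (880 and 509 CPM).

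The same mice stood apart over the called genes as a whole. For each called gene, a mouse was counted when it lay beyond the midpoint of the group means, on the side of the other group. Wild type mouse 2 did so for 54.6% of raised and 73.4% of lowered genes. Model control mouse 1 did so for 33.6% of raised and 19.5% of lowered genes, and each of the other 8 mice for at most 11.2% of either. When the mean log2 CPM of the hypothalamus genes was added to the fit as a covariate, 85 genes were called, 48 raised and 37 lowered, of which 79 were also called without it. This score was lower in 4 of the 5 model control mice than in 4 of the 5 wild type mice, so the covariate also takes up part of any group difference that runs along with it. Below, a gene is said to hold under every check when it was called in the fit of all mice, without any 1 of the 10 mice, in the 10 mice alone and with this covariate.

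**Figure D2:**
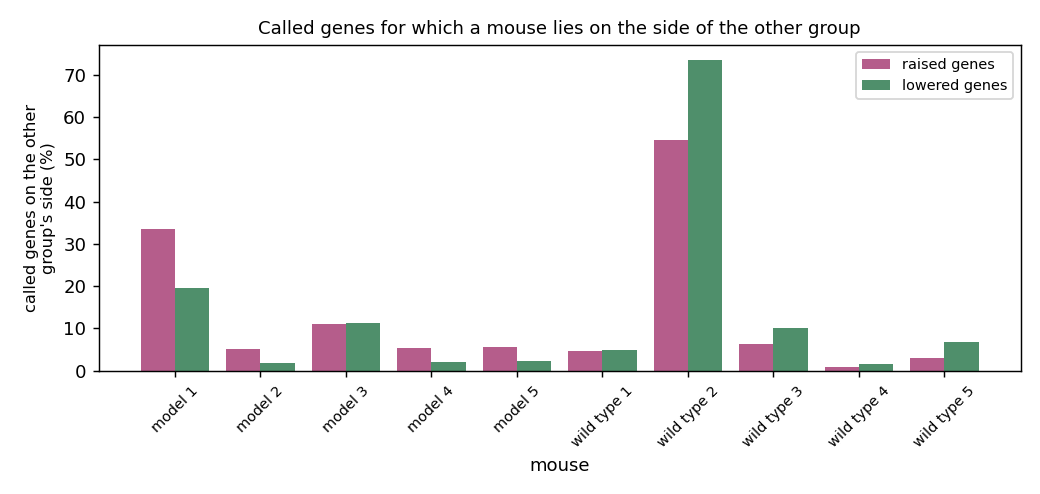
Percent of called genes, raised and lowered, for which each of the 10 mice lay on the other group's side of the midpoint between the group means. Wild type mouse 2 reached 54.6% of raised and 73.4% of lowered genes and model control mouse 1 reached 33.6% and 19.5%, while the other bars end at or below 11.2%.

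Counts of App and Prnp were higher in every model mouse than in any wild type mouse. Counts are per gene, so reads of a transgene and of the mouse gene cannot be told apart. App, the gene of the amyloid precursor protein (chromosome 16, 84746573 to 84970654, mm39), was at 3897, 3903, 4295, 4579 and 4634 CPM in model control, against 1727, 1800.2, 1383, 1724 and 1724 CPM in wild type, with no overlap (log2 fold change 1.35 ± 0.08, adjusted p = 6.38e-12). Prnp, the prion protein gene whose promoter drives the transgenes (chromosome 2, 131751848 to 131780349), was at 1769.9, 1656, 1938, 2028 and 1888 CPM in model control, against 699, 639.9, 591, 673 and 656 CPM in wild type (1.51 ± 0.07, adjusted p = 1.3e-13). Both groups of values were narrow beside the gap between them, and both genes held under every check. Of 18 genes of the secretases and of amyloid handling, 2 were raised and none lowered, against 5.37% raised over all genes, and the median log2 fold change was 0.02. Sorl1, a sorting receptor for the precursor protein, was at 723 ± 70.6 CPM in model control and 523 ± 111 CPM in wild type (0.47 ± 0.10, adjusted p = 0.00536). Ide, an amyloid-degrading protease, was at 51.3 ± 3.54 CPM in model control and 45.9 ± 2.77 CPM in wild type (0.16 ± 0.05, adjusted p = 0.0464). Both overlapped between the groups and neither was called in the 10 mice alone, and Ide also lost its call without model control mouse 2, 4 or 5, or wild type mouse 1, 3, 4 or 5.

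**Figure D3:**
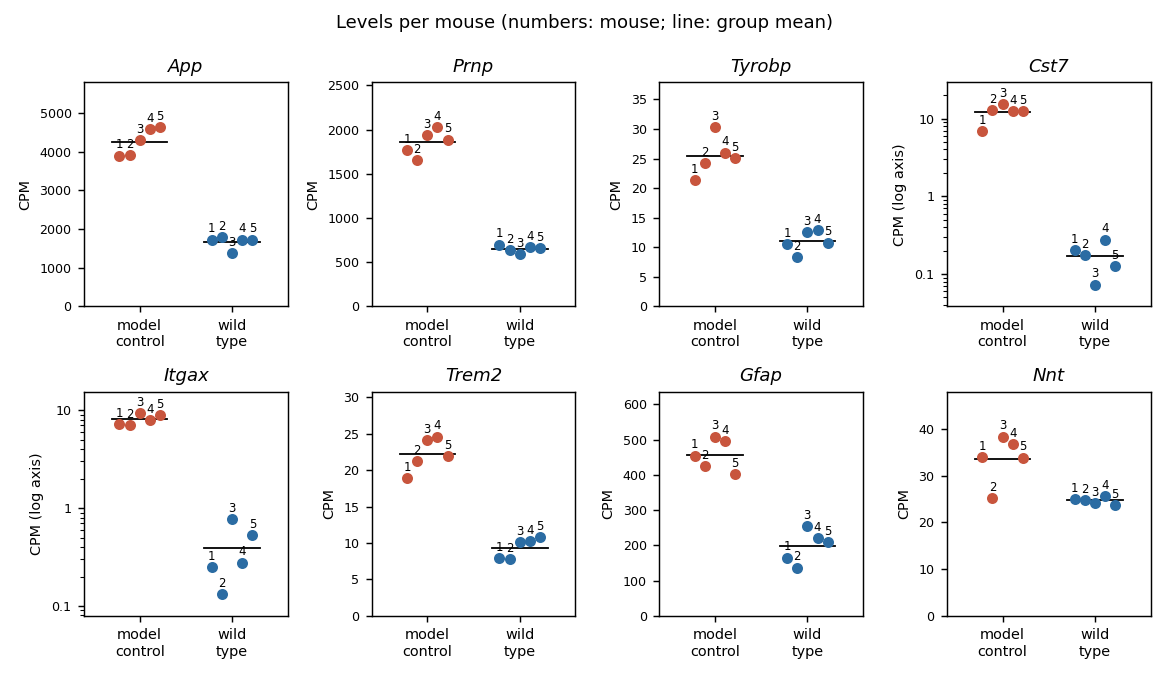
CPM of 8 genes by mouse, with model control left of wild type (points numbered by mouse, line at the group mean, log axis for Cst7 and Itgax). App, Prnp, Tyrobp, Cst7, Itgax, Trem2 and Gfap do not overlap between groups, and Nnt is at the wild type level in model control mouse 2 alone of the model mice.

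Genes of plaque-associated microglia made the clearest group. Of 34, 18 were raised and none lowered, against 5.37% raised over all genes, and 16 lay above wild type without overlap, against 2.43% of all genes. The median log2 fold change was 0.61. Of the list, 15 were raised in the 10 mice alone, 15 without model control mice 4 and 5 and wild type mouse 3, and 12 with the hypothalamus covariate. Cst7, which encodes cystatin F, an inhibitor of lysosomal cysteine proteases (chromosome 2, 150412335 to 150420864), was at 6.83, 12.7, 15.4, 12.5 and 12.5 CPM in model control, against 0.203, 0.176, 0.0730, 0.277 and 0.127 CPM in wild type. The gap was far wider than the spread in either group (6.10 ± 0.43, adjusted p = 9.24e-09). Itgax, the integrin chain CD11c (chromosome 7, 127728719 to 127749829), was at 7.28, 7.09, 9.29, 7.94 and 8.96 CPM in model control, against 0.250, 0.132, 0.774, 0.277 and 0.532 CPM in wild type (4.36 ± 0.38, adjusted p = 2.46e-07). Trem2 (chromosome 17, 48653429 to 48659301), the lipid-sensing receptor on which the plaque response depends, was at 18.9, 21.2, 24.2, 24.6 and 21.9 CPM in model control, against 7.92, 7.80, 10.1, 10.3 and 10.8 CPM in wild type (1.24 ± 0.16, adjusted p = 0.00011). Its signalling adaptor Tyrobp followed at 25.4 ± 3.24 CPM in model control and 11.0 ± 1.81 CPM in wild type (1.20 ± 0.16, adjusted p = 0.00011).

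Among the other raised genes of that list, Clec7a, the receptor dectin-1 for fungal glucans, was at 1.23 ± 0.450 CPM in model control and 0.149 ± 0.131 CPM in wild type (3.03 ± 0.50, adjusted p = 0.000848). Lyz2, lysozyme of myeloid cells, was at 23.5 ± 2.17 CPM in model control and 10.1 ± 2.62 CPM in wild type (1.22 ± 0.17, adjusted p = 0.000231). Cd68, a glycoprotein of the endosome and lysosome of macrophages, was at 17.6 ± 0.901 CPM in model control and 9.20 ± 1.13 CPM in wild type (0.94 ± 0.11, adjusted p = 1.95e-05). All 3 held under every check, as did Cst7, Itgax, Trem2 and Tyrobp. The chemokine genes were low, and their groups did not overlap. Ccl3 was at 0.861 to 1.37 CPM in model control and 0 to 0.467 CPM in wild type (2.56 ± 0.65, adjusted p = 0.0126). Ccl4 was at 0.228 to 0.551 CPM in model control and 0 to 0.118 CPM in wild type (3.44 ± 0.94, adjusted p = 0.0181). Ccl6 was at 2.54 to 4.54 CPM in model control and 0.380 to 1.38 CPM in wild type (2.12 ± 0.37, adjusted p = 0.00128). Of these, Ccl3 and Ccl4 were not called in the 10 mice alone (adjusted p = 0.121 and 0.0609). With the hypothalamus covariate, none of Ccl3, Ccl4 and Ccl6 was called (adjusted p = 0.131, 0.211 and 0.0893). Several familiar genes of the plaque response were not called. Apoe, the main lipid carrier of the brain, which is counted here with amyloid handling, was at 694 ± 117 CPM in model control and 708 ± 89.4 CPM in wild type. The 95% interval of its log2 fold change was -0.28 to 0.22. Astrocytes also express Apoe, and its level in microglia alone cannot be read from cortex. Spp1, osteopontin, was at 13.2 ± 3.35 CPM in model control and 16.6 ± 8.16 CPM in wild type (-0.34 ± 0.39, adjusted p = 0.652). Lpl, lipoprotein lipase, was at 23.1 ± 3.81 CPM in model control and 20.9 ± 4.30 CPM in wild type (0.15 ± 0.17, adjusted p = 0.65).

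Genes of resting microglia did not share this rise. Of 14 homeostatic microglia genes, 1 was raised and none lowered, against 5.37% raised over all genes, and the median log2 fold change was 0.09. P2ry12, the receptor with which microglia sense released nucleotides, was at 16.6 ± 3.42 CPM in model control and 17.7 ± 4.03 CPM in wild type (95% interval of the log2 fold change -0.38 to 0.21). Tmem119, a microglial membrane protein, was at 21.5 ± 1.99 CPM in model control and 22.2 ± 2.46 CPM in wild type (-0.25 to 0.17). Cx3cr1, the fractalkine receptor, was at 9.68, 7.12, 15.2, 10.8 and 9.52 CPM in model control, against 16.0, 51.0, 10.8, 17.5 and 10.1 CPM in wild type (-1.01 ± 0.34, adjusted p = 0.0602), with wild type mouse 2 far above the rest. On this list 1 gene was lowered without model control mouse 3 or wild type mouse 3 or 5, and Cx3cr1 was lowered with the hypothalamus covariate (adjusted p = 0.0398).

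Several receptors of phagocytosis and components of complement rose. Of 16 phagocytic and Fc receptor genes, 7 were raised and none lowered, against 5.37% raised over all genes. All 7 lay above wild type without overlap, against 2.43% of all genes. Of the list, 6 were raised in the 10 mice alone and 2 with the hypothalamus covariate. Fcgr2b, the inhibitory receptor for IgG, was at 7.86, 8.11, 9.34, 8.25 and 8.51 CPM in model control, against 4.04, 3.91, 4.73, 4.15 and 3.37 CPM in wild type (1.06 ± 0.19, adjusted p = 0.00138). The activating receptor gene Fcgr3 was at 22.4 ± 3.43 CPM in model control and 14.9 ± 2.49 CPM in wild type (0.59 ± 0.12, adjusted p = 0.00339). These 2 genes held under every check. Fcer1g, the signalling chain of activating Fc receptors, was at 5.11 ± 0.854 CPM in model control and 2.95 ± 0.365 CPM in wild type (0.79 ± 0.17, adjusted p = 0.00479). Laptm5, a lysosomal membrane protein of blood-derived cells, was at 46.8 ± 5.30 CPM in model control and 32.5 ± 1.90 CPM in wild type (0.52 ± 0.10, adjusted p = 0.00179). Of 12 complement genes, 6 were raised and none lowered, against 5.37% raised over all genes, with 5 raised in the 10 mice alone and 2 with the covariate. C1qa, which encodes a chain of the initiating complex C1q, was at 47.5, 58.5, 56.6, 54.8 and 49.3 CPM in model control, against 25.4, 27.9, 35.0, 32.0 and 31.4 CPM in wild type (0.81 ± 0.14, adjusted p = 0.00145). C4b, the next component of the cascade, was at 148 ± 11.0 CPM in model control and 75.4 ± 13.4 CPM in wild type (0.97 ± 0.15, adjusted p = 0.000553). It has a near-identical neighbour, C4a, and how the authors' counting shared reads between them is not given in the sources used here. C3ar1, the receptor for the C3a fragment, was at 2.96 ± 0.504 CPM in model control and 1.56 ± 0.443 CPM in wild type (0.93 ± 0.19, adjusted p = 0.00323). C1ra, a protease of the C1 complex, was at 6.54, 7.45, 5.50, 9.28 and 10.8 CPM in model control, against 3.46, 7.84, 1.81, 2.24 and 1.96 CPM in wild type, with wild type mouse 2 among the model values (1.20 ± 0.32, adjusted p = 0.0171). The number raised with model control mice 4 and 5 and wild type mouse 3 all left out was 5 for phagocytic receptors and 3 for complement.

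Several lysosomal enzymes were raised. Of 20 lysosomal genes outside the cathepsins of the microglia list, 5 were raised and 1 lowered, against 5.37% raised and 6.21% lowered over all genes. Gusb, beta-glucuronidase, was at 25.7 ± 1.98 CPM in model control and 16.9 ± 1.74 CPM in wild type (0.60 ± 0.09, adjusted p = 0.000475). Hexa, a lysosomal hexosaminidase subunit, was at 74.3 ± 3.39 CPM in model control and 54.5 ± 6.85 CPM in wild type (0.45 ± 0.07, adjusted p = 0.000816). Both held under every check. The lowered gene was Gaa, lysosomal alpha-glucosidase, at 362, 309, 324, 305 and 286 CPM in model control, against 453, 305, 453, 526 and 441 CPM in wild type, with wild type mouse 2 at the model level (-0.46 ± 0.10, adjusted p = 0.00434, with 0.0634 in the 10 mice alone and 0.289 with the covariate). On the microglia list, the cathepsin genes Ctsd and Ctsz held under every check as well. Ctsd, an aspartic protease, was at 551, 669, 633, 639 and 606 CPM in model control, against 358, 365, 406, 384 and 384 CPM in wild type (0.71 ± 0.09, adjusted p = 3.07e-05). Ctsz, a carboxypeptidase, was at 55.8 ± 2.74 CPM in model control and 32.5 ± 3.74 CPM in wild type (0.78 ± 0.10, adjusted p = 6.24e-05). Per length, Ctsd was the more abundant in model control, with a mean deposited value of 268 FPKM against 15.6 FPKM for Ctsz.

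**Figure D4:**
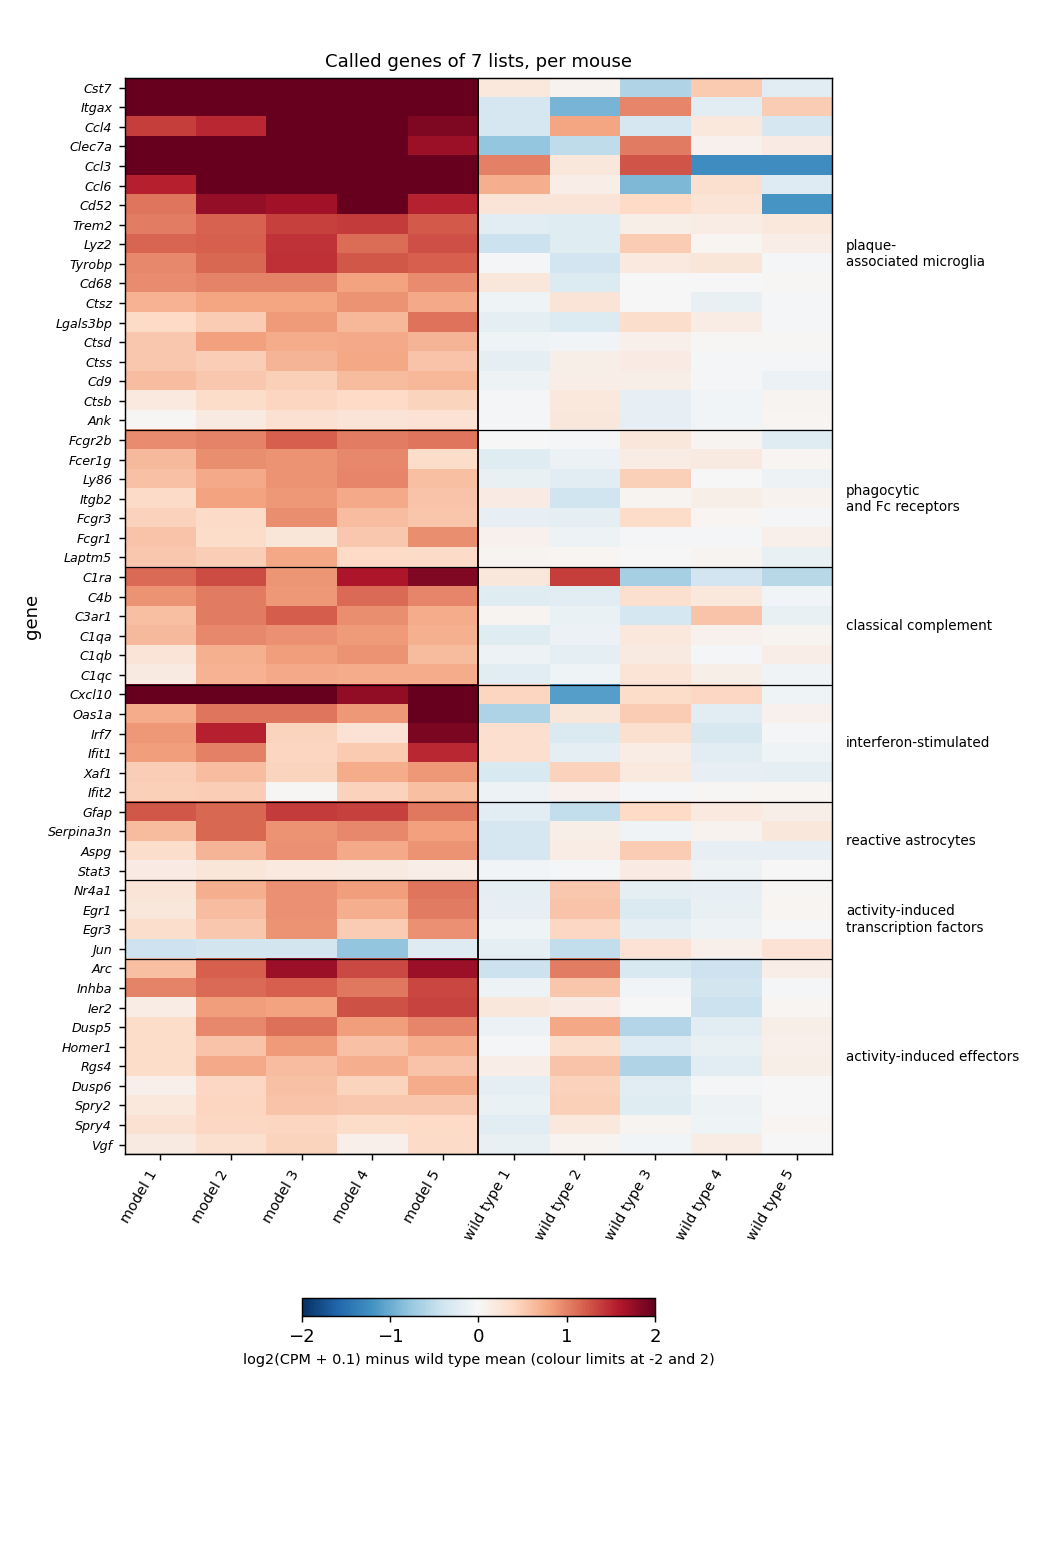
Called genes of 7 lists reported here, by mouse, as log2(CPM + 0.1) minus the wild type mean, red above and blue below that mean, with model control left of wild type and each gene drawn once, under the first list that holds it. The 18 genes of plaque-associated microglia lie above the wild type mean in all 5 model control mice, while several activity genes at the bottom, such as Arc (394 CPM in wild type mouse 2), are red in wild type mouse 2 as well.

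Interferon-stimulated genes were raised in smaller number and less firmly. Of 24, 7 were raised and none lowered, against 5.37% raised over all genes. Log2 fold changes of the 24 had a median of 0.52 and a range of 0.21 to 3.09. The number raised was 1 in the 10 mice alone and 1 with the hypothalamus covariate. Leaving out model control mouse 5 or 2 gave 2 or 4 raised genes, and leaving out wild type mouse 4 or 3 gave 3 or 12. The gene called in every one of these fits was Cxcl10, a chemokine that attracts T cells (chromosome 5, 92494497 to 92496748, mm39), at 0.926, 1.23, 1.48, 0.630 and 1.35 CPM in model control, against 0.188, 0, 0.175, 0.185 and 0.101 CPM in wild type (3.09 ± 0.55, adjusted p = 0.00134). In Ifit1, which encodes an RNA-binding antiviral protein, model control mice were at 2.96, 3.35, 2.20, 2.38 and 4.77 CPM, against 2.06, 1.41, 1.80, 1.38 and 1.52 CPM in wild type (0.94 ± 0.25, adjusted p = 0.0163). Oas1a, a sensor of double-stranded RNA, was at 1.40, 1.77, 1.77, 1.53 and 3.50 CPM in model control, against 0.485, 0.955, 1.17, 0.669 and 0.849 CPM in wild type (1.27 ± 0.38, adjusted p = 0.0316). Model control mouse 5 was the highest for both, and also for Irf7, a transcription factor of the response, at 5.84 CPM. Ifit1 lost its call without that mouse and without wild type mouse 4.

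The promoters of 3 of the raised genes are shown because they hold the core of the element that interferon-activated factors bind, searched as GAAA, any 2 bases, and GAAA again. The sequences run 5′ to 3′ on the gene's strand from 250 bases before to 50 after the start site, as RefSeq annotates it on GRCm38.p6, and capitals mark the match on either strand. They are chr19:34640639-34640938 on the + strand for Ifit1, chr5:120907476-120907775 on the - strand for Oas1a and chr5:92348840-92349139 on the - strand for Cxcl10.
Ifit1: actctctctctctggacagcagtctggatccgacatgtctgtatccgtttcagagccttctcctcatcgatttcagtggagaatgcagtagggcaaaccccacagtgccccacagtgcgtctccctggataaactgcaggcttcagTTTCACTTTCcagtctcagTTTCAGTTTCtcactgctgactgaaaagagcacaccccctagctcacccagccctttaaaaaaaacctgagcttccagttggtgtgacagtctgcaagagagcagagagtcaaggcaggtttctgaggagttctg
Oas1a: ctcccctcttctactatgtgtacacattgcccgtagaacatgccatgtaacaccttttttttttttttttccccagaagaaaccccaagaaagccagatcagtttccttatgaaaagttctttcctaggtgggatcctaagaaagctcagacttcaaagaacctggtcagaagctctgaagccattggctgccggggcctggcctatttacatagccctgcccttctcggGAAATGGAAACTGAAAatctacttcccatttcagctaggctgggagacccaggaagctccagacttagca
Cxcl10: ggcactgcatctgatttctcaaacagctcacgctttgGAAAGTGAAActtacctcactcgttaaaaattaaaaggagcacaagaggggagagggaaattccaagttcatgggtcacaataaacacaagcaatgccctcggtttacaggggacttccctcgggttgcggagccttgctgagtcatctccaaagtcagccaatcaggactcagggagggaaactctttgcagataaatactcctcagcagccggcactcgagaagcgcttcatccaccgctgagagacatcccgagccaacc

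The 3 windows differ in where the match lies: it begins 104 bases before the start site in Ifit1, which has 2 matches, 213 before it in Cxcl10, and 20 before it in Oas1a, where 2 matches overlap. Of 18 interferon genes with a promoter in the table, 13 (72.2%) held the letters on either strand, against 1079 of 27025 genes (3.99%) in all, and of the 6 raised genes with a promoter 3 did. Matching letters are a description and show no binding. The same search found TGACGTCA, the cyclic AMP response element, in 5 of 32 activity-induced genes (15.6%) and in none of the 8 of them that were called, against 2.03% of all genes. It found GAGGAAGT, a form of the PU.1 site of myeloid cells, in 2 of 26 plaque-associated microglia genes (7.69%), against 3.69% of all genes.

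Of 12 genes of MHC class I presentation, 2 were raised, against 5.37% raised over all genes. B2m, the invariant light chain, was at 64.4 ± 8.02 CPM in model control and 38.6 ± 11.2 CPM in wild type (0.74 ± 0.16, adjusted p = 0.00486, and 0.0585 in the 10 mice alone). H2-T23, a class Ib heavy chain, was at 26.1 ± 3.48 CPM in model control and 17.0 ± 2.60 CPM in wild type (0.62 ± 0.14, adjusted p = 0.00702). Genes of this family are alike in sequence and vary between mouse strains, which bears on how many reads align to each. Of 16 genes of toll-like receptors and their adaptors, 1 was raised, against the same 5.37% over all genes. It was Tlr2, a receptor for bacterial lipoproteins, at 1.93, 2.55, 1.99, 3.73 and 2.36 CPM in model control, against 1.56, 1.12, 1.27, 1.15 and 1.17 CPM in wild type (1.00 ± 0.23, adjusted p = 0.00596). That list had 3 raised genes without wild type mouse 3 and 2 without model control mouse 1.

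A few genes of the astrocyte lists differed. Of 22 reactive astrocyte genes, 6 were raised and none lowered, against 5.37% raised over all genes. The number raised was 4 in the 10 mice alone and 4 with the covariate, and the median log2 fold change was 0.17. In both fits the 4 were Gfap, Serpina3n, C4b and Cxcl10. C4b and Cxcl10 are also counted above, with complement and with interferon-stimulated genes. Which cells made their RNA cannot be read from cortex. Gfap, the astrocyte intermediate filament (chromosome 11, 102778162 to 102788026), was at 455, 426, 509, 496 and 403 CPM in model control, against 165, 137, 255, 221 and 210.1 CPM in wild type (1.21 ± 0.15, adjusted p = 7.07e-05). Serpina3n, a secreted serine protease inhibitor, was at 24.2, 34.6, 28.9, 30.3 and 27.4 CPM in model control, against 12.2, 16.9, 14.7, 16.2 and 18.2 CPM in wild type (0.89 ± 0.15, adjusted p = 0.000885). Neither gene overlapped between the groups and both held under every check. Vim, the other classical filament of reactive astrocytes, was at 29.6 ± 6.94 CPM in model control and 24.5 ± 4.35 CPM in wild type (0.27 ± 0.16, adjusted p = 0.287). Of 12 genes of astrocyte homeostasis, 2 were raised. Kcnj10, an inward rectifier potassium channel, was at 244 ± 34.1 CPM in model control and 171 ± 28.9 CPM in wild type (0.51 ± 0.11, adjusted p = 0.0046). Slco1c1, a thyroid hormone transporter, was at 48.7 ± 4.10 CPM in model control and 39.0 ± 3.93 CPM in wild type (0.32 ± 0.09, adjusted p = 0.0147). Neither was called in the 10 mice alone, and leaving out wild type mouse 4 or 2 gave 1 or 4 raised genes. Genes of the list were lowered only without model control mouse 1 or 3 (1 gene each) or wild type mouse 2 (2 genes).

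Some genes that neuronal firing induces were raised, and in several of these wild type mouse 2 was near the model mice. Of 17 activity-induced transcription factors, 3 were raised and 1 lowered, against 5.37% raised and 6.21% lowered over all genes. Of 26 activity-induced effectors, 10 were raised and none lowered. Most members of both lists were not called. Egr1, a zinc finger factor, was at 326, 430.0, 524, 464 and 572 CPM in model control, against 250.0, 413, 228, 252 and 287 CPM in wild type (0.70 ± 0.18, adjusted p = 0.0169). Arc, which acts in synaptic receptor trafficking, was at 294, 446, 637, 486 and 634 CPM in model control, against 144, 394, 158, 145 and 213 CPM in wild type (1.24 ± 0.33, adjusted p = 0.0184). Only model control mouse 1 was below wild type mouse 2 in both genes, and these are the mice that lay on the other group's side in the hypothalamus genes. Neither gene was called in the 10 mice alone (adjusted p = 0.0724 for Egr1 and 0.0788 for Arc) or with the hypothalamus covariate. Fos, the classical marker of recent firing, was at 60.8 ± 11.6 CPM in model control and 37.6 ± 6.74 CPM in wild type (0.69 ± 0.28, adjusted p = 0.118). In the 10 mice alone, however, Fos was called (adjusted p = 0.0479), and so was the related factor gene Egr3 (adjusted p = 0.0442), though neither was with the covariate.

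Among the 26 effectors, 3 lay above wild type without overlap (Inhba, Homer1 and Spry4), against 2.43% of all genes. Inhba, the gene of the activin A subunit, was at 18.1, 20.1, 20.9, 19.1 and 23.1 CPM in model control, against 8.49, 13.4, 8.79, 7.03 and 8.82 CPM in wild type (1.12 ± 0.16, adjusted p = 0.000298), and it held under every check. Homer1, a scaffold of the postsynaptic density, was at 166 ± 20.6 CPM in model control and 109 ± 18.5 CPM in wild type (0.61 ± 0.12, adjusted p = 0.00265). Jun, a component of the AP-1 factor, was lowered at 42.8 ± 5.65 CPM in model control and 58.8 ± 12.7 CPM in wild type (-0.46 ± 0.14, adjusted p = 0.0327) and lost its call without model control mouse 2 or 4 or wild type mouse 3, 4 or 5. Of the transcription factors, 1 was raised without model control mouse 5 or wild type mouse 4. Nr4a1, an orphan nuclear receptor, lost its call without model control mouse 3, 4 or 5 or wild type mouse 1, 3 or 4. Of the effectors, 4 were raised in the 10 mice alone (Inhba, Homer1, Spry4 and Ier2), 1 with the covariate and 1 without model control mice 4 and 5 and wild type mouse 3, and 1 effector was lowered without wild type mouse 2.

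**Figure D5:**
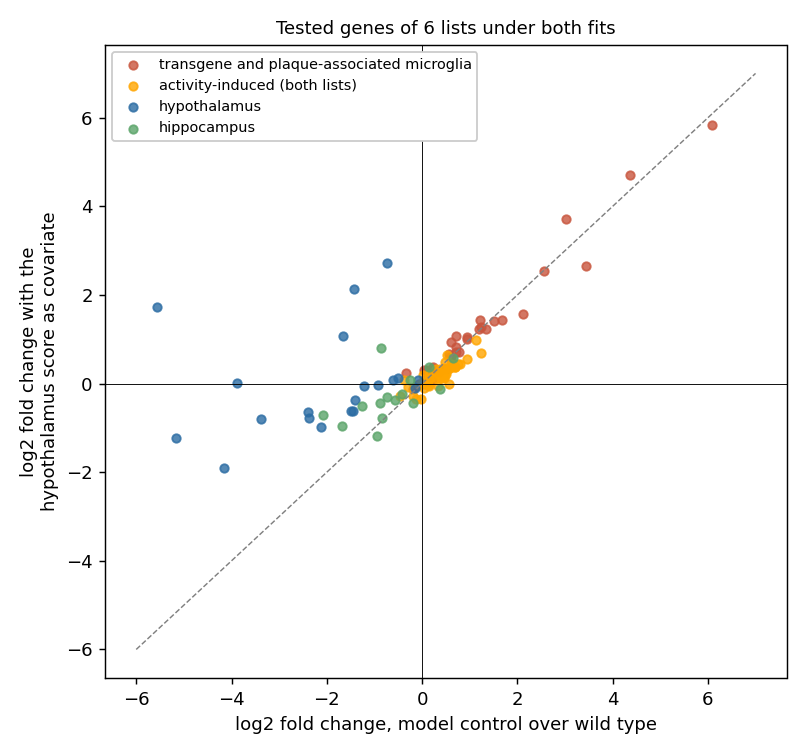
Log2 fold change, model control over wild type, of the tested genes of 6 lists in the fit without (x axis) and with (y axis) the hypothalamus score as covariate, with the line of equal values dashed. Transgene and many plaque-associated microglia genes lie near the line, such as Cst7 at 6.10 and 5.83. Some microglia genes lie off it on either side, such as Clec7a at 3.03 and 3.71 and Ccl4 at 3.44 and 2.65. Hypothalamus genes, from which the score was made, move towards 0 or above. Most raised activity-induced genes lie below the line, such as Arc at 1.24 and 0.70.

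Neurofilament genes were raised and several other cytoskeletal genes lowered, 4 and 5 of 15, against 5.37% raised and 6.21% lowered over all genes. Nefl, the light neurofilament chain, was at 364, 426, 398, 386 and 398 CPM in model control, against 293, 343, 291, 296 and 322 CPM in wild type (0.35 ± 0.05, adjusted p = 0.000198). Nefm, the medium chain, was at 479.7, 593, 546, 534 and 607 CPM in model control, against 287, 433, 281, 251 and 352 CPM in wild type (0.78 ± 0.11, adjusted p = 0.000222). Both lay above wild type without overlap and held under every check. Their coordinates on chromosome 14 (68321312 to 68326544 and 68320039 to 68362295) overlap in the deposited annotation, and how shared reads were counted is not given in the sources used here. Map2, a microtubule protein of dendrites, lay below wild type without overlap, at 437 ± 30.2 CPM in model control and 537 ± 37.5 CPM in wild type (-0.30 ± 0.07, adjusted p = 0.00574). In the 10 mice alone 1 gene of this list was lowered, with the covariate none was, and 3 were without model control mouse 2, 4 or 5, or without wild type mouse 1, 4 or 5.

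Interneuron genes also went both ways, with 3 raised and 4 lowered of 18, against 5.37% raised and 6.21% lowered over all genes. Reln, the secreted guidance protein reelin, was at 145, 125, 132, 129 and 119 CPM in model control, against 217, 142, 169, 219 and 182 CPM in wild type (-0.51 ± 0.10, adjusted p = 0.0021). Sst, somatostatin, was at 75.6 ± 11.9 CPM in model control and 95.0 ± 9.28 CPM in wild type (-0.33 ± 0.09, adjusted p = 0.014, and 0.0955 in the 10 mice alone). Vip, vasoactive intestinal peptide, was at 19.5 ± 0.993 CPM in model control and 15.3 ± 2.18 CPM in wild type (0.35 ± 0.10, adjusted p = 0.024, and 0.07 in the 10 mice alone). No raised interneuron gene remained called without model control mouse 5 or wild type mouse 3 or 4, and 1 did without model control mouse 2 or wild type mouse 1 or 5. The lowered genes were 1 without wild type mouse 4 and 2 without model control mouse 4, and no interneuron gene was called with the covariate. Of 17 genes that mark cortical layers, 5 were raised and 2 lowered. Rorb, a nuclear receptor of layer 4, was at 63.3, 38.2, 90.6, 85.0 and 85.8 CPM in model control, against 58.0, 30.1, 45.9, 45.7 and 26.7 CPM in wild type (0.81 ± 0.20, adjusted p = 0.0127). Otof, the calcium sensor otoferlin, was at 70.5, 22.4, 55.9, 35.1 and 20.3 CPM in model control, against 126, 35.1, 149, 158 and 105 CPM in wild type (-1.49 ± 0.35, adjusted p = 0.00847). No layer gene was called in the 10 mice alone or with the covariate. The raised layer genes were 2 without wild type mouse 4 and 3 without model control mouse 3 or 4, and the lowered genes 1 without model control mouse 2, 4 or 5 or wild type mouse 1, 4 or 5.

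Most synaptic genes were not called, with 1 raised and 1 lowered of 22, against 5.37% raised and 6.21% lowered over all genes. The median log2 fold change was 0.03. Syn2, synapsin of synaptic vesicles, was at 575, 431, 543, 511 and 507 CPM in model control, against 789, 529, 719.7, 859 and 769 CPM in wild type, with wild type mouse 2 at the model level (-0.51 ± 0.09, adjusted p = 0.0012). Snap25, of the vesicle fusion complex, was at 1669.9 ± 132 CPM in model control and 1323 ± 283 CPM in wild type (0.34 ± 0.09, adjusted p = 0.0196). Without wild type mouse 2, 2 synaptic genes were called in each direction, and Snap25 lost its call without model control mouse 2 or 5, or wild type mouse 3 or 4.

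A few chaperone genes were raised by small amounts. Of 15 cytosolic chaperones, 4 were raised and none lowered, against 5.37% raised over all genes, and the log2 fold changes of the 15 had a median of 0.28 and ran from 0.03 to 0.81. Hspa4l, a co-chaperone of the Hsp70 system, was at 224 ± 18.1 CPM in model control and 176 ± 16.2 CPM in wild type (0.34 ± 0.07, adjusted p = 0.00357). Dnaja1, which delivers substrates to Hsp70, was at 167 ± 7.69 CPM in model control and 141 ± 4.94 CPM in wild type (0.24 ± 0.05, adjusted p = 0.00419). The chaperone count was 3 in the 10 mice alone, 2 without wild type mouse 4 and none with the covariate. Of 18 genes of the unfolded protein response, 4 were raised and none lowered, among them Sdf2l1, a protein of the endoplasmic reticulum, at 10.2 ± 1.17 CPM in model control and 6.37 ± 1.75 CPM in wild type (0.68 ± 0.17, adjusted p = 0.00949). None of the 4 was called in the 10 mice alone, and the count was 1 without wild type mouse 4 and 2 without model control mouse 2, 4 or 5 or wild type mouse 1. Of 13 mitochondrially encoded genes, 2 were lowered, against 6.21% lowered over all genes. mt-Co3, a subunit of cytochrome oxidase, was at 163, 135, 123, 103 and 106 CPM in model control, against 190.1, 160.2, 197, 180.2 and 164 CPM in wild type (-0.50 ± 0.11, adjusted p = 0.0066, and 0.0508 in the 10 mice alone). Model control mouse 1, the highest of its group, moved this list most: 7 of 13 were lowered without it.

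Among the 10 lowered genes with the smallest p were Usp11, Mycl, Pnma3, Gpsm1, Susd2, Dnah5, Rhbdl3 and Zfp46. Zfp46, a zinc finger gene (chromosome 4, 136011994 to 136021253), was at 40.2, 37.9, 34.3, 39.2 and 39.1 CPM in model control, against 69.8, 52.6, 52.8, 69.6 and 57.6 CPM in wild type (-0.67 ± 0.10, adjusted p = 0.000509). Its groups did not overlap, and with the hypothalamus covariate the log2 fold change was -0.66, close to that without it.

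In all 8 of these genes, wild type mouse 2 was the wild type mouse nearest to the model. Mycl, a MYC family factor, was at 7.53 ± 1.57 CPM in model control and 16.7 ± 4.51 CPM in wild type (-1.15 ± 0.17, adjusted p = 0.000346), with wild type mouse 2 at 9.69 CPM. Usp11, a deubiquitinase encoded on chromosome X, was at 155 ± 18.3 CPM in model control and 228 ± 34.1 CPM in wild type (-0.55 ± 0.08, adjusted p = 0.000298), with wild type mouse 2 at 180.3 CPM, below model control mouse 1 at 185 CPM. Dnah5, a dynein chain of motile cilia that ependymal cells carry, was at 10.1, 6.93, 6.91, 6.62 and 7.15 CPM in model control, against 14.4, 10.2, 15.7, 17.0 and 15.4 CPM in wild type (-0.95 ± 0.15, adjusted p = 0.000475). These 8 genes held under every check except Rhbdl3, of the rhomboid protease family, which lost its call with the hypothalamus covariate (adjusted p = 0.0677). Among raised genes outside the lists, Cbln4, a secreted organiser of inhibitory synapses (chromosome 2, 171878153 to 171885386), was at 20.4, 30.1, 26.7, 22.7 and 28.5 CPM in model control, against 12.3, 15.7, 10.2, 9.16 and 11.2 CPM in wild type (1.13 ± 0.15, adjusted p = 0.00011), and it also held under every check.

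Strain was examined through genes reported to differ between the C57BL/6J and C3H backgrounds. Of 9 tested, 1 was raised, Ide, against 5.37% raised over all genes, and the median log2 fold change was -0.02. Nnt, the mitochondrial transhydrogenase that carries a deletion in C57BL/6J (chromosome 13, 119471984 to 119545533), was at 34.1, 25.3, 38.4, 36.7 and 33.9 CPM in model control, against 25.1, 24.9, 24.2, 25.7 and 23.7 CPM in wild type. It was not called (0.45 ± 0.16, adjusted p = 0.0706) but was in the 10 mice alone (adjusted p = 0.0431), and model control mouse 2 was at the wild type level. The same mouse stood apart in genes of chromosome Y, which were looked at after the values by chromosome were seen. Kdm5d, a histone demethylase, was at 93.3, 50.7, 89.6, 94.9 and 87.8 CPM in model control, against 45.1, 47.5, 49.3, 44.9 and 46.3 CPM in wild type (0.84 ± 0.23, adjusted p = 0.021). Ddx3y, an RNA helicase, was at 79.7, 40.1, 59.3, 82.3 and 57.9 CPM in model control, against 38.2, 33.7, 32.9, 33.8 and 34.1 CPM in wild type (0.89 ± 0.28, adjusted p = 0.0409). On chromosome Y 4 of 6 genes tested were called, all raised, against 11.6% called over all genes. Chromosome X had 15 raised and 71 lowered of 565 genes (15.2% called), against 5.37% raised and 6.21% lowered over all genes. Chromosome 15 had 15.1% called and chromosome 7 the lowest share of the autosomes, 8.62%, beside the same 11.6%.

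Lists of other cells and processes held few calls, to be read beside 5.37% raised and 6.21% lowered over all genes. Of 16 myelin genes, 2 were raised, with a median log2 fold change over the list of 0.30. Gjb1, a connexin of oligodendrocytes, was at 19.3, 21.0, 14.7, 19.5 and 17.0 CPM in model control, against 8.65, 15.7, 14.9, 10.6 and 15.5 CPM in wild type (0.49 ± 0.15, adjusted p = 0.0412, and 0.119 in the 10 mice alone), and its groups overlapped. Model control mouse 3 was the lowest of its group, and 9 myelin genes were raised without it. The count was 0 without model control mouse 2 or wild type mouse 1 or 4 and 1 without model control mouse 1, 4 or 5. Pdgfra, the growth factor receptor of oligodendrocyte precursors and of meningeal fibroblasts, was the only call among 12 precursor genes, at 60.5 ± 5.46 CPM in model control and 84.7 ± 15.3 CPM in wild type (-0.48 ± 0.10, adjusted p = 0.00254). It was not called in the 10 mice alone (adjusted p = 0.0539) or with the covariate (adjusted p = 0.17). The precursor count was 2 without model control mouse 1 and 3 without wild type mouse 2. Among vascular genes, 1 of 12 endothelial genes was lowered, and of 10 genes of pericytes and smooth muscle 1 was raised and 1 lowered. Endothelial genes were raised without model control mouse 4 or wild type mouse 2 (1 each) or wild type mouse 3 (2 genes). The raised mural gene, Rgs5, lost its call without model control mouse 1, 2 or 4 or wild type mouse 1, 4 or 5. The lowered one, Notch3, lost it without model control mouse 3, 4 or 5 or wild type mouse 3, 4 or 5. No myelin or vascular gene of these lists was called in the 10 mice alone or with the covariate.

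Of 18 clock genes, 3 were raised and 2 lowered, against 5.37% raised and 6.21% lowered over all genes. Arntl, the BMAL1 gene of the core clock, was at 45.8, 48.5, 51.4, 38.6 and 43.9 CPM in model control, against 35.6, 36.0, 37.9, 30.0 and 35.9 CPM in wild type, without overlap (0.38 ± 0.09, adjusted p = 0.00574). Usp2, a clock output gene, was at 83.7 ± 4.13 CPM in model control and 98.1 ± 5.00 CPM in wild type (-0.23 ± 0.07, adjusted p = 0.0229), also without overlap. The lowered clock genes were none without model control mouse 3 or wild type mouse 1, and 1 without model control mouse 1, 2 or 5 or wild type mouse 4 or 5. No clock gene was called with the hypothalamus covariate (adjusted p = 0.104 for Arntl and 0.0972 for Usp2). The time of death is not given in the sources used here. Of 14 glucocorticoid-responsive genes, Fkbp5, a co-chaperone of the glucocorticoid receptor, was lowered, at 45.7 ± 5.39 CPM in model control and 63.5 ± 7.29 CPM in wild type (-0.47 ± 0.09, adjusted p = 0.00181). It was not called with the covariate (adjusted p = 0.104), and 1 gene of the list was raised without model control mouse 1 or wild type mouse 2.

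Levels in the 15 treated transgenic mice are given beside these as a description, since any comparison with them would use the same control mice. App was at 3439 to 4169 CPM with both compounds, 3979 to 5066 CPM with salviolone, 3738 to 4535 CPM with vestitol and 3897 to 4634 CPM in model control, all above the 1383 to 1800.2 CPM of wild type. Cst7 was at 3.42 to 17.6 CPM with both compounds, 10.1 to 20.4 CPM with salviolone, 8.80 to 18.7 CPM with vestitol and 6.83 to 15.4 CPM in model control, all over the wild type maximum of 0.277 CPM. All transgenic groups thus lay above wild type in both genes, and differences among those groups were not tested. Hap1, in contrast, was at 171 to 231 CPM with both compounds, against 38.1 to 47.8 CPM with salviolone, 38.3 to 60.3 CPM with vestitol, 45.2 to 119 CPM in model control and 53.8 to 253 CPM in wild type. Usp11 was at 215 to 249 CPM with both compounds, 141 to 155 CPM with salviolone, 141 to 164 CPM with vestitol, 141 to 185 CPM in model control and 180.3 to 269.9 CPM in wild type. Mice given both compounds were thus within the wild type range for Hap1 and Usp11. Wild type mouse 2 set the lower end of both ranges. Model control mouse 1 also lay within them, at 119 CPM for Hap1 and 185 CPM for Usp11. For Hap1 so did model control mouse 3 and the vestitol maximum of 60.3 CPM. The hypothalamus score ran from 2.033 to 3.798 with both compounds. It ran from -0.308 to 1.651 in model control and from -0.258 to 2.793 in wild type. Zfp46 was at 37.2 to 52.7 CPM with both compounds, 33.8 to 49.4 CPM with salviolone, 38.4 to 47.1 CPM with vestitol and 34.3 to 40.2 CPM in model control, against 52.6 to 69.8 CPM in wild type. Whether the dissection or the compounds moved with Hap1 and Usp11 was not tested.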

How the data were processed

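Cortex RNA of 25 samples was read by sequencing, and the 10 samples of 2 groups were compared. Per the submitters' processing notes, reads were trimmed with Trim Galore and aligned to mm39 with STAR. Their versions are not given here by any source, nor are the counter, gene annotation or strand setting. The authors deposited raw counts per gene and FPKM for 21720 genes, 2769 of them at 0 in every library. Of counts from 4 to 39, 44.5% were multiples of 4, so 1 alternative divided all counts by 4. Per the labels, library kits of both TruSeq and SMARTER type are named.

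Genes were kept with filterByExpr (minimum count 10), which held 99.99% of counts. All 25 samples entered a single fit with a term for each group in edgeR 4.0.16 (R 4.3.3), with TMM scaling (factors 0.980 to 1.04) and a two-sided quasi-likelihood F test with robust settings. CPM use TMM-scaled library sizes, and a count of 0 allows a level of up to 3 counts, 0.0323 to 0.0469 CPM in the 10 libraries, for counting error only. Alternatives used limma 3.58.1, DESeq2 1.42.0, other filters and scalings, fewer mice and covariates. The test was checked on simulated counts with known changes.

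The compared groups and the 37 gene lists (558 of 562 names in the table) were chosen with earlier results of these data known. Named genes were the markers, the 10 called genes in each direction with the smallest p, the 5 with the largest fold, up to 4 called genes of each list, abundant members of tissue lists, and Nnt. Others, such as Arc, Ccl4 and the genes of chromosome Y, were named after their values were seen. Some genes that this rule names are not reported here. Sequences are from RefSeq.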

Additional observations from a re-analysis of the deposited data

Results flagged for a closer look

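Of 242 groups of 5 values (named genes and tissue sums), 30 (12.4%) held a mouse far from the other 4 of its group by Dixon's criterion, which chance gives in about 1 in 20 groups. Where a library is named, the value stands apart from the rest of its own group.

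In model control, Cd68 was at 16.1 CPM, Hbb-bs at 71.5 CPM, Prl at 0.103 CPM and the red blood cell sum at 213 CPM in mouse 4. Mouse 1 was at 119 CPM for Hap1, 83.7 CPM for Zcchc12, 42.1 CPM for Baiap3, 30.0 CPM for Pnma3 and 10.1 CPM for Dnah5. Mouse 2 was at 304 CPM for Kcnj10 and 176 CPM for Rora, and mouse 3 at 12.6 CPM for Ifit2.

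In wild type mouse 3, Gh was at 5320 CPM, Prl at 400 CPM, Pomc at 85.9 CPM, Lhb at 28.8 CPM, Pou1f1 at 20.0 CPM and the pituitary sum at 6050 CPM. The same mouse was at 1380 CPM for App, 220 CPM for Pde10a, 66.6 CPM for Hexa and 10.6 CPM for Ly86. Wild type mouse 2 was at 249 CPM for Enpp2, 192 CPM for Egr3, 164 CPM for Nr4a1, 58.7 CPM for Spry2 and 13.4 CPM for Inhba, and its choroid plexus sum was 269 CPM. Wild type mouse 5 was at 29.2 CPM for Laptm5 and 149 CPM for Dnaja1. The part of the pituitary and hypothalamus levels in these values was not tested.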

How the results depend on the processing

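The number of genes called, 1913 of 16515 (887 raised, 1026 lowered), was 1900 with RLE size factors, 2326 with DESeq2, 2748 with limma-voom and 2063 with counts divided by 4. It was 349 (159 raised, 190 lowered) in the 10 mice alone, 85 (48 and 37) with the hypothalamus score as covariate and 10 (8 and 2) against a 1.5-fold minimum. Leaving out model control mice 4 and 5 and wild type mouse 3 together, an alternative chosen after seeing the data, gave 349 (162 and 187). Leaving out each mouse in turn gave 954 to 2928 called, 438 to 1420 raised and 516 to 1508 lowered. A block for the replicate number gave 1903 calls over all 25 mice and 402 (165 and 237) over the 10. Mice of equal number did not deviate together over all genes tested (correlations -0.09 to 0.08). Such correlations cannot show whether equal numbers share a batch that moves only some genes. The scalings tried moved the median of all genes by at most 0.02 (log2). The cause of these moves was not tested. The fit of 10 mice had a median of 12.3 residual degrees of freedom, against 25.3 with all mice. Depth limits genes near 3 counts, such as Ccl4 and Cxcl10 in wild type.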
